A study of Mus musculus with 21 samples.

Results

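The genes described here are 10 genes used to mark macrophages, the phagocytic leukocytes that reside in the heart wall. They were chosen by name, as Csf1r, Adgre1, Ccr2, Mrc1, Cd163, Cd68, Lyz2, C1qa, C1qb and C1qc, and all 10 were found among the 46517 Ensembl genes of the counts table. RNA of the left ventricle was sequenced in bulk from 4 control (Notch3+/+) mice and 3 Notch3-/- mice of strain C57BL/6J, aged 10 to 14 months. The Notch3-/- mice are constitutive knockouts with lacZ inserted in the Notch3 locus, no treatment is named for either group, and the sex of these mice is not given in the sources used here. Each mouse gave 3 technical libraries, and these were added up to 1 value per mouse. Control mice 1 and 2 have labels that start with X, while control mice 3 and 4 and every Notch3-/- mouse have labels that start with k. What the letters stand for is not given, and since X occurs in control mice only, a difference tied to that letter cannot be told apart from one of genotype where these 2 mice are used.

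Macrophages of the heart depend on signalling through the CSF1 receptor, clear dying cells and debris, and are the main source of the complement protein C1q in many tissues. Most of those in the healthy adult heart renew themselves locally, whereas macrophages that carry the chemokine receptor CCR2 are replaced from blood monocytes. In bulk tissue, fewer cells of a type and less RNA per cell cannot be told apart, and the same holds for a higher value.

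Total counts were 3091461, 4638786, 4208205 and 3046326 across controls 1 to 4. In Notch3-/- mice 1 to 3 they were 3828763, 5167869 and 5086740. Values are given as CPM, counts scaled to library sizes that were adjusted by edgeR's TMM factors. Notch3 itself was at 57.3, 42.1, 57.6 and 61.8 CPM across controls 1 to 4 and at 6.01, 7.57 and 4.73 CPM in Notch3-/- mice 1 to 3. Every Notch3-/- mouse lay far below every control mouse, as the genotype labels state, with a log2 fold change of -3.16 (SE 0.23, FDR = 0.00173 by edgeR's quasi-likelihood F-test, Benjamini-Hochberg adjusted over all genes tested).

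Genes of liver cells differed between the mice and are given before the macrophage genes, since the liver has macrophages of its own, the Kupffer cells. The 15 genes of the hepatocyte list summed to 55.0, 165, 13.4 and 27.4 CPM across controls 1 to 4 and to 6641, 11486 and 145 CPM in Notch3-/- mice 1 to 3. Notch3-/- mice 1 and 2 were thus far above all others, and the sum in Notch3-/- mouse 3 lay within the range of the control mice. By the median over the 15 genes of log2 CPM less its mean in control mice, where abundant genes weigh no more than others, Notch3-/- mouse 3 stood at 1.56, above controls 1 to 4 (0.16, 1.47, -0.98 and -0.48). All 15 genes had a positive log2 fold change and an unadjusted p lower than 0.05 by edgeR in all 7 mice. Of all genes tested in that fit 49.6% were positive and 7.34% were higher at that p. In that fit 0 of 15 were called (an FDR under 0.05 and a change of 1.5-fold or more), with a smallest FDR of 0.118. Over all 22 lists (180 genes) 0 genes were called in that fit, 27 with DESeq2 and 30 by edgeR without Notch3-/- mouse 3. Among all genes tested, these fits called 1 of 14324, 597 of 28735 (2.08%) and 936 of 15008. For 6 of the 15 every Notch3-/- mouse, mouse 3 included, lay above every control mouse, beside 4.57% of all genes tested. Among the 6, Tat, Cyp2e1 and Cps1 were at 3.97, 6.43 and 4.35 CPM in Notch3-/- mouse 3. In control mice they were at up to 1.90, 5.69 and 3.37 CPM. For Ttr, at 308 and 445 CPM in Notch3-/- mice 1 and 2, Notch3-/- mouse 3 lay within the control range (7.75 CPM against 1.88 to 8.22). The most abundant was Alb, the gene of serum albumin, at 1705 and 1875 CPM in Notch3-/- mice 1 and 2 and at 66.9 CPM in Notch3-/- mouse 3, against 2.35 to 81.1 CPM in control mice. The 5 genes of the Kupffer cell list summed to 5.27, 4.43, 2.59 and 10.0 CPM across controls 1 to 4 and to 48.6, 72.6 and 3.78 CPM in Notch3-/- mice 1 to 3. Clec4f, a lectin that defines Kupffer cells and the most abundant gene of that list, was counted 0, 6, 7 and 2 times across controls 1 to 4, and 83, 128 and 10 times in Notch3-/- mice 1 to 3. As CPM, Clec4f was at 1.89 in Notch3-/- mouse 3 and at no more than 1.65 in control mice. Cd5l, a scavenger protein of macrophages, was at 20.2, 30.5 and 0.189 CPM in Notch3-/- mice 1 to 3, and among control mice it was found only in mouse 4 (4.01 CPM). The 5 genes of liver sinusoidal endothelium, with Fcna the most abundant, summed to 10.4 to 19.6 CPM in control mice and to 66.1, 102 and 19.3 CPM in Notch3-/- mice 1 to 3. Of these, Dnase1l3 and Stab2 were higher in every Notch3-/- mouse than in any control mouse, in Notch3-/- mouse 3 at 3.59 and 4.54 CPM against up to 2.12 and 4.47 CPM. Some liver genes were thus above the control range in Notch3-/- mouse 3 too. The part of these liver cell markers in the values of the macrophage genes was not tested, and the edgeR fit was repeated without Notch3-/- mice 1 and 2 for the macrophage genes, Notch3 and the counts of called genes.

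**Figure D1:**
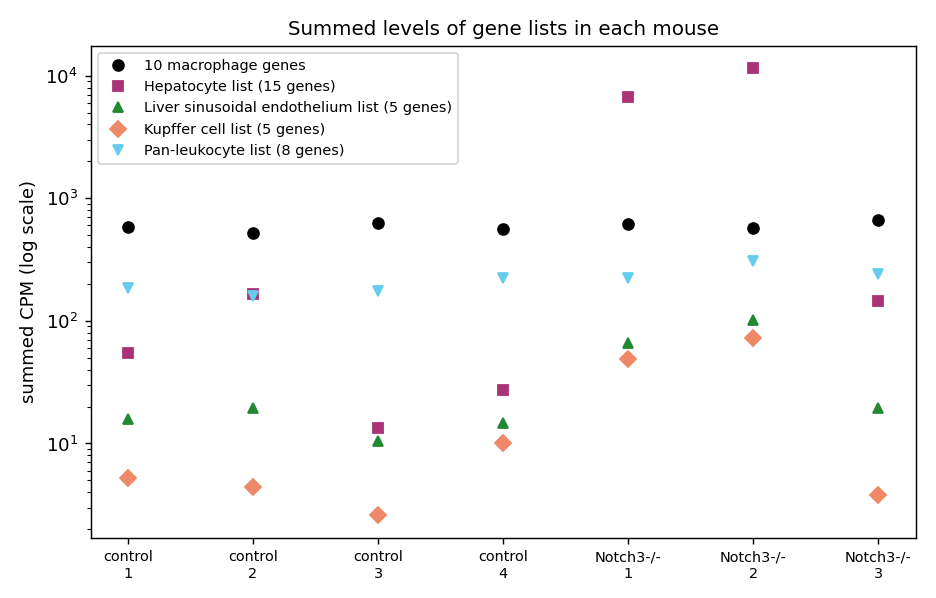
Summed CPM (log scale) of the 10 macrophage genes and of 4 gene lists in each of the 7 mice, 1 point per list and mouse. The macrophage genes lie between 518 and 667 CPM in every mouse, while the hepatocyte list reaches 6641 and 11486 CPM in Notch3-/- mice 1 and 2.

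The 10 macrophage genes summed to 582, 518, 625 and 563 CPM across controls 1 to 4 (mean 572, SD 44.4) and to 614, 574 and 667 CPM in Notch3-/- mice 1 to 3 (mean 618, SD 46.7), and the groups overlapped. By the median over the 10 genes of log2 CPM less its mean in control mice, controls 1 to 4 stood at -0.05, -0.05, 0.11 and 0.05 and Notch3-/- mice 1 to 3 at 0.07, 0.03 and 0.30. In Notch3-/- mouse 3 all 10 genes lay above the control mean of log2 CPM, 5 of them above every control mouse. All 10 genes passed the filter on low counts. Of the 10 genes, 0 were called in edgeR (an FDR under 0.05 together with a change of 1.5-fold or more), where 0.00698% of the 14324 genes tested were called, that is Notch3 alone. DESeq2 called 0 of the 10 genes, beside 2.08% of the 28735 genes it tested, and had 2 of the 10 at an unadjusted p lower than 0.05, beside 6.71% of all. For limma-voom these were 0 of the 9 macrophage genes it could test, beside 0.581% of 11193 genes, and 1 of the 9, beside 13.3%. In edgeR 2 genes had an unadjusted p lower than 0.05, Ccr2 and Mrc1, both higher in Notch3-/- mice, beside 7.34% of all genes tested that were higher and 3.05% that were lower at the same limit (10.4% in all). The same 2 genes had groups that did not overlap, with every Notch3-/- mouse above every control mouse, which held for 4.57% of all genes tested, while 3.96% had every Notch3-/- mouse below every control mouse. The median log2 fold change of the 10 genes was 0.15, with 7 positive and 3 negative, against -0.003 for all genes tested, of which 49.6% were positive. This median was 0.01 without Notch3-/- mouse 3, 0.05 without control mouse 2 and 0.29 without Notch3-/- mice 1 and 2. With a hepatocyte covariate it was 0.37, and its sign turned in technical library 2 alone (-0.09).

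**Figure D2:**
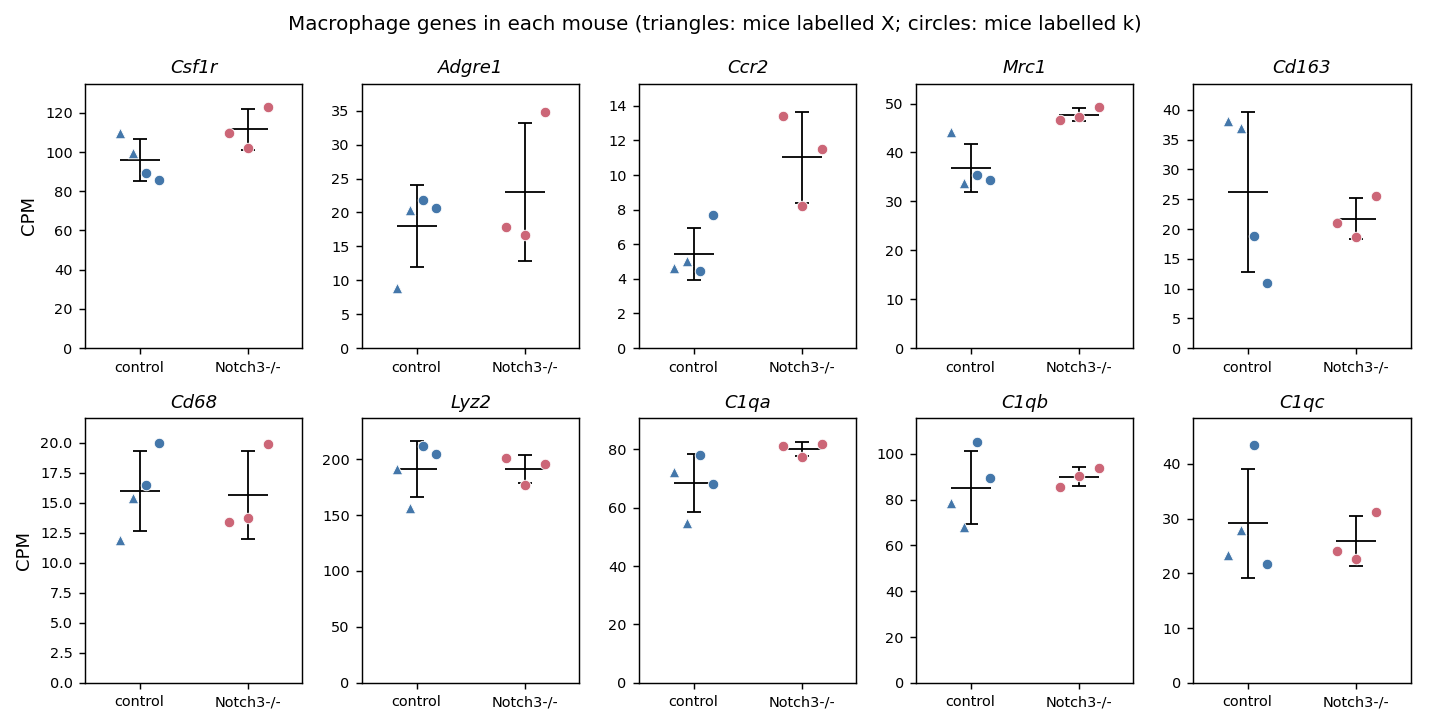
CPM of each macrophage gene in each mouse, with the mean and SD of each genotype; triangles are mice whose labels start with X and circles those whose labels start with k. In Ccr2 and Mrc1 every Notch3-/- mouse lies above every control mouse, and in the other 8 genes the groups overlap.

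Among the receptors, Csf1r encodes the receptor for CSF1 and IL-34, on which macrophage survival depends. Csf1r was at 109.6, 99.3, 89.4 and 85.8 CPM across controls 1 to 4 and at 109.6, 102 and 123 CPM in Notch3-/- mice 1 to 3. Control mouse 1 stood as high as Notch3-/- mouse 1, so the groups overlapped, and the log2 fold change was 0.22 (SE 0.14, FDR = 0.626 by edgeR, Benjamini-Hochberg). It was -0.42, 0.37 and 0.55 in technical libraries 1, 2 and 3 alone. Its exons share 873 bases with Hmgxb3 on the opposite strand, which had 1247 counts over all mice, and since strand use in counting is not given in the sources used here, reads from the shared bases cannot be assigned. Adgre1 encodes F4/80, an adhesion receptor that marks mature mouse macrophages. Adgre1 was at 8.89, 20.4, 21.9 and 20.7 CPM across controls 1 to 4 and at 17.8, 16.6 and 34.8 CPM in Notch3-/- mice 1 to 3. The highest value was that of Notch3-/- mouse 3 and the lowest that of control mouse 1, while the other 5 mice lay between 16.6 and 21.9 CPM. The log2 fold change was 0.36 (SE 0.36, FDR = 0.774 by edgeR, Benjamini-Hochberg). It was 0.94 without Notch3-/- mice 1 and 2 and -0.08 without Notch3-/- mouse 3, so its sign rested on that mouse.

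Ccr2, the receptor for CCL2 and related chemokines, had the lowest counts and the highest log2 fold change of the 10 genes. Its counts were 14, 24, 19 and 23 across controls 1 to 4 and 49, 39 and 61 in Notch3-/- mice 1 to 3. As levels these were 4.61, 5.06, 4.47 and 7.68 CPM across controls 1 to 4 and 13.4, 8.20 and 11.5 CPM in Notch3-/- mice 1 to 3. The groups did not overlap, and the closest values were those of control mouse 4 and Notch3-/- mouse 2. The mean was 5.45 CPM (SD 1.51) in control and 11 CPM (SD 2.63) in Notch3-/- mice, with a log2 fold change of 1.02 (SE 0.31) that did not pass the test (FDR = 0.277 by edgeR, Benjamini-Hochberg). Single libraries held 2 to 32 counts of Ccr2, and here the genotypes overlapped. The libraries of control mice lay between 1.71 and 12.3 CPM (median 5.08) and those of Notch3-/- mice between 4.86 and 18.3 CPM (median 11.8). Without Notch3-/- mice 1 and 2 the log2 fold change was 1.09, which rests on Notch3-/- mouse 3, whose liver genes were in part above those of the control mice. In the mice labelled k alone it was 0.87. Set against Csf1r in the same mouse, a ratio chosen after the values were seen, Ccr2 had 4.20, 5.10, 5.00 and 8.95 counts per 100 Csf1r counts across controls 1 to 4 and 12.2, 8.04 and 9.36 in Notch3-/- mice 1 to 3. By this ratio control mouse 4 lay above Notch3-/- mouse 2, and the groups overlapped.

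**Figure D3:**
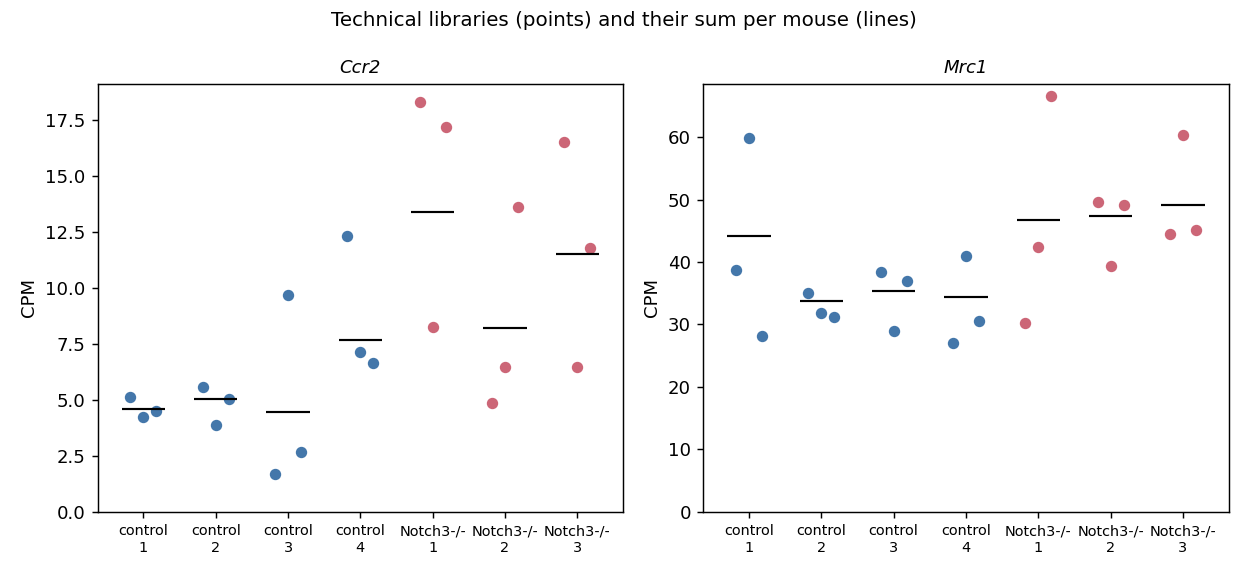
CPM of Ccr2 and Mrc1 in the 3 technical libraries of each mouse (points) and in their sum (lines), blue for control and red for Notch3-/- mice. The sums of the genotypes are apart for both genes, while single libraries overlap, for Ccr2 from 1.71 to 12.3 CPM in control and from 4.86 to 18.3 CPM in Notch3-/- mice.

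Of the scavenger receptors, Mrc1 encodes the mannose receptor CD206, an endocytic lectin of tissue macrophages that some endothelial cells also make. Mrc1 was at 44.1, 33.7, 35.3 and 34.4 CPM across controls 1 to 4 and at 46.7, 47.3 and 49.2 CPM in Notch3-/- mice 1 to 3. The Notch3-/- mice lay close together and above every control mouse, of which control mouse 1 was the nearest. The mean was 36.9 CPM (SD 4.87) in control and 47.7 CPM (SD 1.27) in Notch3-/- mice, and the log2 fold change of 0.37 (SE 0.15) did not pass the test (FDR = 0.428 by edgeR, Benjamini-Hochberg). It was 0.42 without Notch3-/- mice 1 and 2 and 0.45 in the mice labelled k alone. Cd163 encodes the receptor that takes up complexes of haemoglobin and haptoglobin. Cd163 was at 38.2, 36.9, 18.8 and 11 CPM across controls 1 to 4 and at 21, 18.7 and 25.5 CPM in Notch3-/- mice 1 to 3. Both control mice labelled X stood above all 5 mice labelled k, and the control group spanned the Notch3-/- group. The log2 fold change was -0.27 in all mice (SE 0.38, FDR = 0.854 by edgeR, Benjamini-Hochberg) and 0.53 in the mice labelled k alone, so its direction turned with the choice of control mice.

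**Figure D4:**
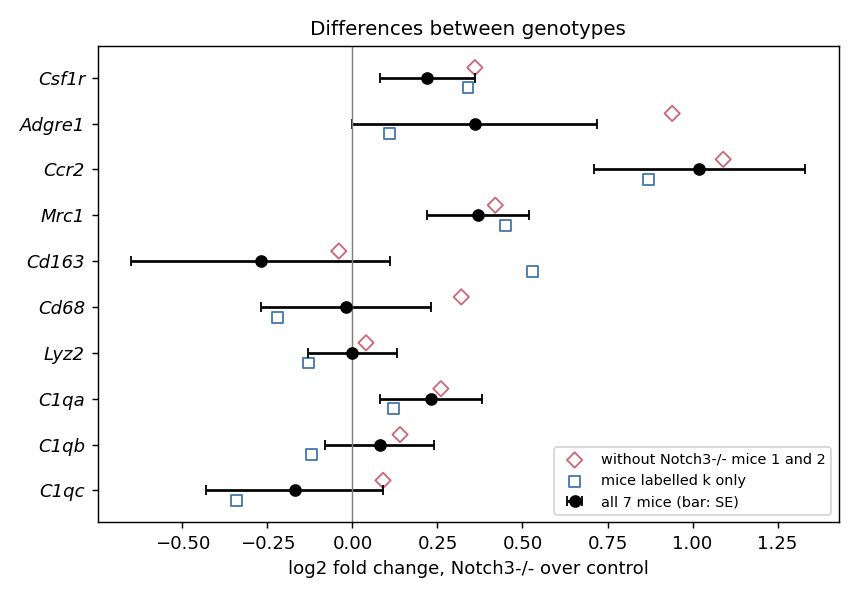
Log2 fold change of each macrophage gene, Notch3-/- over control, in all 7 mice with its SE (black), without Notch3-/- mice 1 and 2 (diamonds) and in the mice labelled k only (squares). Ccr2 and Mrc1 are positive in all 3, Cd163 is -0.27 in all mice and 0.53 in the mice labelled k, and Adgre1 ranges from 0.11 to 0.94.

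Of the 2 genes of lysosomal and granule proteins, Cd68, a lysosomal membrane glycoprotein, was at 11.9, 15.4, 16.5 and 20 CPM across controls 1 to 4 and at 13.4, 13.7 and 19.9 CPM in Notch3-/- mice 1 to 3. Lyz2, lysozyme, was at 191, 156, 212 and 205 CPM across controls 1 to 4 and at 201, 177 and 196 CPM in Notch3-/- mice 1 to 3. For both genes the control mice spanned the Notch3-/- mice. The log2 fold changes were -0.02 (SE 0.25) for Cd68 and 0.00 (SE 0.13) for Lyz2, the smallest of the 10 genes in all mice. Cd68 was at 0.32 without Notch3-/- mice 1 and 2 and at 0.45 with a hepatocyte covariate, and Lyz2 at -0.13 in the mice labelled k alone, so both signs turned. Lyz1, a close copy of Lyz2 on the same chromosome with which it can share reads, had 40 counts over all mice, against 5448 for Lyz2.

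C1qa, C1qb and C1qc encode the A, B and C chains of C1q, which assemble into a single protein that starts the classical complement pathway. The genes lie side by side on the minus strand of chromosome 4, at chr4:136895917-136898803 (C1qa), chr4:136889804-136893065 (C1qc) and chr4:136880129-136886187 (C1qb) in GRCm38, within 18675 bases. C1qa was at 72.4, 54.8, 78.1 and 68.1 CPM across controls 1 to 4 and at 81.2, 77.2 and 81.7 CPM in Notch3-/- mice 1 to 3. C1qb was at 78.4, 68.1, 105 and 89.2 CPM across controls 1 to 4 and at 85.5, 90.4 and 93.8 CPM in Notch3-/- mice 1 to 3. C1qc was at 23.4, 28, 43.5 and 21.7 CPM across controls 1 to 4 and at 24.0, 22.7 and 31.2 CPM in Notch3-/- mice 1 to 3. All 3 chains were highest among control mice in mouse 3, and for each chain the groups overlapped, for C1qa only because control mouse 3 lay above Notch3-/- mouse 2. The log2 fold changes were 0.23 (SE 0.15) for C1qa, 0.08 (SE 0.16) for C1qb and -0.17 (SE 0.26) for C1qc, with FDR of 0.63, 0.909 and 0.866 by edgeR, Benjamini-Hochberg. C1qc was at 0.08 without control mouse 3 and 0.09 without Notch3-/- mice 1 and 2. C1qb was at -0.02 without control mouse 2 and -0.12 in the mice labelled k alone. The signs of both thus turned with the mice used. That of C1qa turned in technical library 2 alone (-0.15). Per exon length, C1qb stood at 1.01 to 1.29 times C1qa in each of the 7 mice, whereas C1qc stood at 0.16 to 0.30 times C1qa.

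The sequences before the starts of C1qb and C1qc are shown because these neighbours encode chains of the same protein, with that of Mrc1, 1 of the 2 genes whose groups did not overlap. They were taken from RefSeq (GRCm38.p6), from 250 bases before the start up to the first annotated exon base, 5′ to 3′ on the strand of the gene. Capitals mark the PU box GAGGAA, the motif bound by PU.1, or its reverse complement. The stretches lie at chr4:136886201-136886450 (C1qb, minus strand), chr4:136893066-136893164 (C1qc, minus strand) and chr2:14229164-14229391 (Mrc1, plus strand).
C1qb: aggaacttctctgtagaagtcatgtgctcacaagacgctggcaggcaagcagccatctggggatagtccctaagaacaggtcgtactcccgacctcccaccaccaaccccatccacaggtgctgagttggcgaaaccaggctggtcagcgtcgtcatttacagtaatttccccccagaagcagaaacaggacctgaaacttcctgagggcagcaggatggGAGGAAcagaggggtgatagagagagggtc
C1qc: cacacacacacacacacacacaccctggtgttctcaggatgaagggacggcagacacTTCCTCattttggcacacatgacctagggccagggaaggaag
Mrc1: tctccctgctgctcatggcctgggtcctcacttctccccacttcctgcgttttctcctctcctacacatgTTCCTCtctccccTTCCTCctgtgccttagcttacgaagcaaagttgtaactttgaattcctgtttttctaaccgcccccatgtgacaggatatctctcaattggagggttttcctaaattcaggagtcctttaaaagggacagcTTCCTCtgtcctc
The motif was found 1 time before C1qb, 1 time before C1qc and 3 times before Mrc1. In stretches not shown it was found 1 time before Cd68 (250 bases) and 0 times before Lyz2 (201 bases). Ccr2, the other gene whose groups did not overlap, had only 17 bases before an annotated exon (0 matches) and Cd163 had 0 bases, and the other genes were not searched. Among 32851 RefSeq promoters, 23.3%, 9.9% and 21.2% held it in stretches of these lengths (250, 99 and 228 bases). The TATA box TATAAA, searched on both strands, was in 0 of the 3 stretches. A match is a description of the letters and not of binding.

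Between genes, levels were compared per kb of exon. Lyz2 was the highest at 145 CPM per kb in both genotypes (SD 18.7 in control, 9.6 in Notch3-/- mice), followed by C1qb with 78.4 (SD 14.7) and 82.6 (SD 3.82) and C1qa with 65.7 (SD 9.55) and 76.9 (SD 2.36). Csf1r followed with 16.6 (SD 1.85) and 19.3 (SD 1.87), C1qc with 15.1 (SD 5.15) and 13.5 (SD 2.36), and Cd68 with 12.7 (SD 2.68) and 12.4 (SD 2.91). Mrc1, Adgre1 and Cd163 lay lower, and Ccr2 was the lowest with 0.807 (SD 0.223) in control and 1.63 (SD 0.389) in Notch3-/- mice. The order of Lyz2, C1qb, C1qa and Csf1r held in 7 of 7 mice, as did that of Cd68 over Mrc1 and of Cd163 over Ccr2. Csf1r over C1qc and C1qc over Cd68 held in 6 of 7 mice, Adgre1 over Cd163 in 5 and Mrc1 over Adgre1 in 3, so these neighbours were not set apart beyond the spread between mice.

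**Figure D5:**
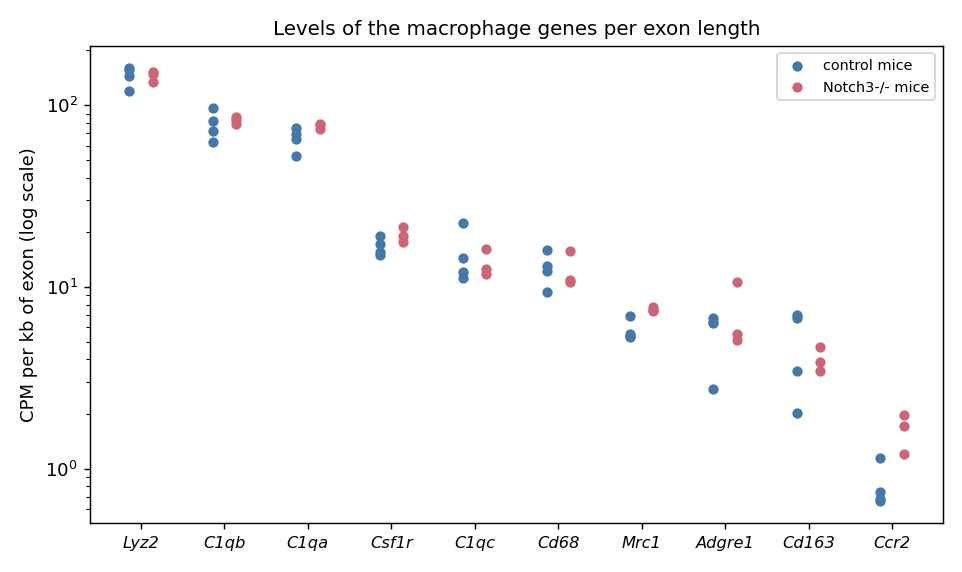
CPM per kb of exon (log scale) of the macrophage genes in order of their mean, 1 point per mouse, blue for control and red for Notch3-/- mice. Lyz2, C1qb and C1qa lie above the other genes, and Ccr2 is the lowest.

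Other genes of macrophages were read from lists, against 49.6% positive over all genes tested and 10.4% at an unadjusted p under 0.05. Of the 14 genes of the CSF1 receptor axis and lineage factors, 10 had a positive and 4 a negative log2 fold change, with a median of 0.19, and 0 were called. Irf8, a transcription factor of monocytes and macrophages, had a log2 fold change of 0.66 (SE 0.26) and the oxysterol receptor Nr1h3, the most abundant of the list, 0.74 (SE 0.29). Nr1h3 was at 31.1 to 48.3 CPM in control mice and at 57.7, 97.2 and 41.4 CPM in Notch3-/- mice 1 to 3, with overlap. Hepatocytes also express it, and their part in its values was not tested. Of 16 pan-macrophage genes 15 were positive, with a median of 0.39, no gene was called (0 of 16) and an unadjusted p under 0.05 was seen for 3. These were Mpeg1, which encodes a pore-forming protein, the efferocytosis receptor Mertk and the protease Ctss. Mpeg1 was at 1.32, 1.90, 2.12 and 2.67 CPM across controls 1 to 4 and at 8.47, 5.47 and 3.40 CPM in Notch3-/- mice 1 to 3, with no overlap. Lgmn, the most abundant of the list, had a log2 fold change of -0.10 (SE 0.14).

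The 11 genes of resident cardiac macrophages were divided, with 5 positive, 6 negative, a median of -0.05 and 0 called. Gas6, a ligand of MERTK and the most abundant of them, had a log2 fold change of -0.05 (SE 0.12). Vsig4, a complement receptor, was at 4.94, 2.11, 3.76 and 3.67 CPM across controls 1 to 4 and at 9.02, 10.9 and 6.43 CPM in Notch3-/- mice 1 to 3. Timd4, a receptor for phosphatidylserine, was at 2.63, 2.11, 1.88 and 0.334 CPM across controls 1 to 4 and at 3.01, 3.79 and 5.48 CPM in Notch3-/- mice 1 to 3. Both were higher in every Notch3-/- mouse than in any control mouse (FDR = 0.23 for Vsig4 and 0.457 for Timd4 by edgeR, Benjamini-Hochberg). Timd4 had 8, 10, 8 and 1 counts across controls 1 to 4 and 11, 18 and 29 in Notch3-/- mice 1 to 3. A single technical library of Notch3-/- mouse 3 held 25 of its 29 counts. Vsig4 and Timd4 are also made by Kupffer cells, whose part in these values was not tested. Cd209f was lower, at 2.32 to 10.9 CPM in control and 1.47 to 2.27 CPM in Notch3-/- mice.

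Markers of the blood cells that supply CCR2-bearing macrophages were scarce. Of 9 monocyte genes 3 passed the filter, and 0 of them had an unadjusted p lower than 0.05. Ly6c2, the most abundant, was at 4.61, 7.80, 5.65 and 4.34 CPM across controls 1 to 4 and at 4.10, 6.94 and 7.0 CPM in Notch3-/- mice 1 to 3, with overlap. Of 4 CCR2 ligands, 3 were tested and 0 were called, and Ccl7, the most abundant, had a log2 fold change of 0.49 (SE 0.43). Of 49 list genes with at least 1 count that did not pass the filter, and so were not tested, 3 were higher in every Notch3-/- mouse than in any control mouse and 0 were lower, beside 1.76% and 1.61% of all 14466 such genes. The 3 were Clec4f (see above), the monocyte gene Plac8 and the CCR2 ligand Ccl12. Plac8 was counted 2, 2, 1 and 2 times across controls 1 to 4, and 8, 7 and 11 times in Notch3-/- mice 1 to 3. Ccl12 was counted 1, 9, 3 and 6 times, and 8, 20 and 18 times, at 0.329 to 2.00 CPM in control and 2.19 to 4.21 CPM in Notch3-/- mice. Of 8 neutrophil genes 2 were tested, with Csf3r the most abundant at a log2 fold change of -0.18 (SE 0.46), and Ly6g, Mmp8 and Camp were at 0 counts in every mouse. Among 8 pan-leukocyte genes 8 were positive with a median of 0.32, and 0 were called. Lcp1, an actin-bundling protein of leukocytes, was at 45.4, 34.1, 49.9 and 56.8 CPM across controls 1 to 4 and at 74.9, 133 and 84.9 CPM in Notch3-/- mice 1 to 3, with no overlap. Laptm5, the most abundant of these genes, was at 55.8 to 79.2 CPM in control and 66.1 to 80.8 CPM in Notch3-/- mice.

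Of 10 partners of C1q in the complement pathway 0 were called by edgeR in all 7 mice, with a smallest FDR of 0.118. All 10 had a positive log2 fold change, with a median of 0.68, 5 had an unadjusted p lower than 0.05, and the groups were apart for 3 and overlapped for the rest. Over all genes tested 49.6% were positive, 7.34% were higher at that p and 4.57% were higher with groups apart. C3, the central component and the most abundant, was at 335, 199, 209 and 245 CPM across controls 1 to 4 and at 859, 1559 and 448 CPM in Notch3-/- mice 1 to 3. C4b was at 21.9 to 46.1 CPM in control mice and at 121, 395 and 78.5 CPM in Notch3-/- mice 1 to 3, and C2 at 2.35 to 3.67 CPM and at 17.8, 58.5 and 9.27 CPM. For C3, C4b and C2 every Notch3-/- mouse lay above every control mouse, and Notch3-/- mouse 2, with the highest hepatocyte sum, was the highest. C1s1 and C1ra, which encode the proteases of the C1 complex, were at 38.1 to 58.4 and 19.1 to 24.0 CPM in control mice, and in Notch3-/- mice 1 to 3 at 68.3, 238 and 49.4 CPM and at 30.9, 72.8 and 18.2 CPM. In Notch3-/- mouse 3 C1s1 thus lay within the range of the control mice and C1ra below it. Hepatocytes secrete all 5 proteins, and the part of liver RNA in these values was not tested. In Notch3-/- mouse 2 the C1q chains C1qa, C1qb and C1qc lay at 77.2, 90.4 and 22.7 CPM, each within the range of the control mice. In Notch3-/- mice 1 and 3 C1qa lay above that range, at 81.2 and 81.7 CPM against up to 78.1 CPM. C1qb and C1qc lay within it in these mice too.

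The genes whose log2 CPM over the 7 mice was most like the mean of the 10 macrophage genes were Klhl7 (Pearson's r 0.975), Col4a5 (0.972), Armc1 (0.953), Tstd3 (0.940) and Krt222 (0.938), with all 7 mice as points. They were picked as the 5 highest of all tested genes outside the 10, and 30 such genes had r of at least 0.9. All 5 were highest in Notch3-/- mouse 3, the mouse with the highest member sum, and 0 of the 5 belong to the macrophage lists. Among the 10 genes themselves, r with their mean was highest for Adgre1 (0.734) and lowest for Cd163 (-0.005), so that no single pattern over the mice was shared by all 10. Each of the 10 is itself part of that mean, so its r is in part built in.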

How the data were processed

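Left ventricle RNA of 7 mice was reverse transcribed, amplified by PCR, fragmented with Tn5 and sequenced as single reads. The authors deposited counts, whole numbers of reads per Ensembl gene in 21 libraries, without normalization. The submitters' processing notes name the build mm10 and CASAVA, and the aligner, the counter and the use of strand are not given in the sources used here. The 92 spike-in lines were left out, symbols and exon lengths came from GENCODE vM21 (GRCm38), and the 3 libraries of a mouse were summed. The reads carry no molecular identifiers.

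Genotypes were compared in R 4.3.3 with edgeR 4.0.16 (filterByExpr, TMM factors, quasi-likelihood test, genotype as the only term) over 14324 genes. A gene was called where its FDR (Benjamini-Hochberg) was under 0.05 and it differed 1.5-fold or more. Alternatives used DESeq2 1.42.0 (unshrunken fold changes) and limma 3.58.1, other factors, filters and subsets of mice or libraries, and a hepatocyte covariate. Log2 CPM had a prior count of 2. The fits were tested on simulated data. A number of false calls was set beforehand as the limit, and it was looser than an FDR of 0.05. There, limma-voom kept to this limit only when libraries of a mouse varied as much as the real ones. It made too many false calls when they varied by counting error alone. Even so, in a single simulated draw, DESeq2 and limma-voom made more false calls than an FDR of 0.05 stands for. For edgeR the excess was small, and a single draw cannot tell it from 0.05. The counts of called genes are to be read with that in mind. Large counts were not limited to DESeq2 and limma-voom, since edgeR called 639 with every gene kept and 936 without Notch3-/- mouse 3. The cause of the large counts was not tested.

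The 10 genes and the 22 lists (180 genes) were chosen with earlier results of these data known. Named from each list were its most abundant gene, every called gene, up to 4 genes with the smallest unadjusted p lower than 0.05, and genes at 0 counts in every mouse. The 5 genes most like the mean of the members were also named, as were C1ra, for its value in Notch3-/- mouse 3, Xcr1, Acta2 and Mylk, whose direction differed from that of genes named from their lists, and list genes under the filter whose groups did not overlap.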

Additional observations from a re-analysis of the deposited data

Results flagged for a closer look

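Among the control mice, 5 of the 56 genes examined had 1 mouse far from the other 3, by a gap to the nearest mouse divided by the whole range, both on log2 CPM, above Dixon's critical value for 4 mice. Chance gives about 1 in 20. For Adgre1 this was control mouse 1 (ratio 0.924), low at 8.89 CPM, and for Mrc1 control mouse 1 (ratio 0.831), high at 44.1 CPM. The others were Cd5l in control mouse 4 (ratio 1.000, 12 counts against 0 in the others), Stab2 in control mouse 1 (ratio 0.90, low at 2 counts) and Col1a1 in control mouse 1 (ratio 0.987, high at 167 CPM).

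Spike-in sequences, which entered no comparison, had 18 counts in technical library 1 of Notch3-/- mouse 1, above the 3 counts that a count of 0 allows, and no more than 3 in any other library.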

How the results depend on the processing

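Of the 10 macrophage genes 0 were called under every alternative run, and Ccr2 and Mrc1 were positive wherever they were tested (log2 fold change 0.87 to 1.57 in 17 alternatives and 0.24 to 0.73 in 19, FDR 0.197 to 0.998 and 0.3 to 0.998 from edgeR, DESeq2 or limma). Ccr2 did not pass the filter in limma-voom or in technical library 2 alone. Ccr2 had the lowest counts of the 10 genes, with 229 over all mice.

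The number of called genes was 1 in all mice, 597 with DESeq2, 639 with every gene kept, 65 with limma-voom on 21 libraries, 48, 39 and 77 in technical libraries 1, 2 and 3 alone, 0 in the mice labelled k and 0 with the hepatocyte covariate. Leaving out each mouse gave 1 to 936, the highest without Notch3-/- mouse 3, when 903 were higher. List genes called were 0 in all mice, 27 with DESeq2, 26 with every gene kept, 7 with limma-voom, 6, 10 and 13 in technical libraries 1, 2 and 3, and 0 to 30 with a mouse left out. Notch3 lost its call in the mice labelled k (-3.29, FDR = 0.206 from edgeR) and with the covariate (-3.36, FDR = 0.128 from edgeR), over FDR of 2.8e-27 to 0.206 in all alternatives.

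Macrophage genes with an unadjusted p lower than 0.05 numbered 2 in all mice, 1 with every gene kept, 1 with limma-voom, 1 in the mice labelled k, 0, 0 and 3 in technical libraries 1, 2 and 3, and 1 to 2 with a mouse left out. Their median log2 fold change was -0.09 and 0.26 in technical libraries 2 and 3, 0.37 with the covariate and 0.01 to 0.18 with a mouse left out. An alternative chosen after seeing the data, without Notch3-/- mice 1 and 2, gave 0.29, with Notch3-/- mouse 3 alone assumed to vary like the control mice.

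Directions turned for 8 genes. In technical library 1 alone Csf1r was at -0.42 and Cd68 at 0.10. In technical library 2 alone Cd68 was at 0.0045, Lyz2 at -0.14, C1qa at -0.15 and C1qb at -0.09. In technical library 3 alone Lyz2 was at -0.07, Cd163 at 0.25, C1qb at -0.13 and C1qc at 0.22. In the mice labelled k Lyz2 was at -0.13, Cd163 at 0.53 and C1qb at -0.12. With the covariate Cd68 was at 0.45 and C1qc at 0.25, and without Notch3-/- mice 1 and 2 at 0.32 and 0.09. Lyz2, at 0.00 in all mice, was at -0.0006 with DESeq2, -0.0023 with RLE factors and -0.01 with every gene kept. With a mouse left out Cd68 ranged from -0.24 to 0.10, Adgre1 from -0.08 to 0.55, Lyz2 from -0.09 to 0.06, C1qb from -0.02 to 0.19 and C1qc from -0.33 to 0.08. The cause was not tested.

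No paired analysis was possible because the numbers the groups share are those of technical libraries within a mouse, which were summed, and mouse numbers only name the mice.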

Other observations

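Other leukocytes and the cells of the heart wall were read from the same fit, with 0 genes called in each list by edgeR. Of 8 dendritic cell genes 4 were tested, 2 positive and 2 negative (median -0.07), with Zbtb46 the most abundant (log2 fold change 0.27, SE 0.16) and Xcr1 the lowest (-1.15, SE 0.53). Of 7 B cell genes 3 were tested, and Ighm, the heavy chain of IgM and the most abundant, was at 12.2 to 16.9 CPM in control mice and at 23.5, 38.9 and 20 CPM in Notch3-/- mice 1 to 3. Of 8 T cell and 6 natural killer cell genes 0 were tested, with Cd4 and Nkg7 the most abundant at 68 and 34 counts over all mice. Of 6 mast cell genes 1 was tested, Tpsb2, at a log2 fold change of 0.09 (SE 0.74). Of 5 adipocyte genes 0 were tested, with Cidec the most abundant at 108 counts over all mice, 90 of them in Notch3-/- mouse 2.

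Among 7 fibroblast genes 4 were positive and 3 negative. Col1a1 and Col3a1, which encode fibrillar collagens, were at 126 to 167 and 206 to 295 CPM in control mice, and in Notch3-/- mice 1 to 3 at 178, 203 and 248 CPM and at 360.4, 453 and 526 CPM. Both were higher in every Notch3-/- mouse than in any control mouse, with the highest values in Notch3-/- mouse 3, while Dcn, the most abundant of the list, was lower (log2 fold change -0.26, SE 0.11). Of 6 vascular smooth muscle genes 5 were tested, 2 positive and 3 negative, with a median log2 fold change of -0.26. Myh11, the myosin heavy chain of smooth muscle, was at 10.6 to 39.8 CPM in control mice and at 3.28, 5.05 and 3.59 CPM in Notch3-/- mice 1 to 3, with no overlap, and Tagln had a log2 fold change of -0.93 (SE 0.35). Des was the most abundant (-0.26, SE 0.12). Acta2 (0.15, SE 0.53) and Mylk (0.24, SE 0.38) were positive, with overlap. Of 10 cardiomyocyte genes 1 was positive and 9 negative, with Ttn the most abundant (-0.10, SE 0.17), and of 6 endothelial genes 4 were positive and 2 negative, with Kdr the most abundant (0.43, SE 0.24). Of 6 erythroid genes 5 were tested and 5 were negative, with log2 fold changes of -0.52 (SE 0.21) for Hbb-bs, the most abundant, and -0.60 (SE 0.23) for Hba-a1.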
